A study of Mus musculus with 6 samples.

Results

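Interferon-stimulated genes are the genes that cells switch on after interferon binds its receptor, and the 35 studied here are those that lie outside the large multigene families of the response. Members were the probe sets to which the array's annotation gives exactly 1 gene symbol, that symbol being 1 of the 35. In this way 33 of the 35 genes were measured, by 60 of the 45037 probe sets of the array, among 18193 genes in all. Isg15 and Ifi44 had no such probe set and are not analysed here. The marrow came from adult female F1 mice of a pair of outcrosses, with 3 arrays each: (AKR/J x FVB/NJ)F1, called AKR F1, and (DBA/2J x FVB/NJ)F1, called DBA F1, and the study asked how basal expression differs between these genotypes. The labels give no treatment other than Avertin anaesthesia before death, and every animal carried a chromosome set from an FVB/NJ parent, so that by their labels the groups differ in the AKR/J or DBA/2J set. Nothing in the labels says that the 3 arrays of a group came from separate animals, so p-values here weigh a difference against the spread of these samples alone, and that spread may be technical. The number of arrays limits the precision of every value.

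Type I interferons bind the receptor chains Ifnar1 and Ifnar2, whose kinases Jak1 and Tyk2 act on a complex that contains Stat2 and Irf9 and binds the interferon-stimulated response element in the promoters of such genes. Interferon gamma signals to a different element, the gamma-activated site. Many of the genes are also expressed at a low, tonic level without infection, and in marrow they are active in several lineages, plasmacytoid dendritic cells being a known source of interferon. Their products sense viral nucleic acid, block viral entry, translation and budding, or feed back on the pathway itself.

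The promoters of the members show this wiring in their letters. They are printed for Bst2 and Ifit1, which differed between the groups as described further on, for Ifit3 and Rsad2, which carry the same element and did not pass the test, and for Irf1, whose promoter holds the gamma-activated site and not the other element. The sequences are from RefSeq in build GRCm38.p6, which is the C57BL/6J reference and not the genome of any parent used here. Each shows the 250 bases before the annotated start, 5' to 3' in the direction of the gene, with capitals for matches to GAAA, any 2 bases and GAAA (TTTC, any 2 bases and TTTC where it lies on the other strand), the core of the response element, and to TTCNNNGAA, the core of the gamma-activated site.
Bst2, chr8:71537473-71537722, minus strand: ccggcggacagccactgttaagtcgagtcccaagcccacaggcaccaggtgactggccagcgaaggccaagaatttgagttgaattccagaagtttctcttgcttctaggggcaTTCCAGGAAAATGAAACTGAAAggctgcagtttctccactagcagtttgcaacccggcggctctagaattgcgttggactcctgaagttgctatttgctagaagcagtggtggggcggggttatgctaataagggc
Ifit1, chr19:34640639-34640888, plus strand: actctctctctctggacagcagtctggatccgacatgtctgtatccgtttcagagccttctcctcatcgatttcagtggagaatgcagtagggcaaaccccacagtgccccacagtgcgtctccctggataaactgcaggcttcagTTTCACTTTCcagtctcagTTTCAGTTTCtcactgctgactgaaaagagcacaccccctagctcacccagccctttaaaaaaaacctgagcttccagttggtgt
Ifit3, chr19:34583279-34583528, plus strand: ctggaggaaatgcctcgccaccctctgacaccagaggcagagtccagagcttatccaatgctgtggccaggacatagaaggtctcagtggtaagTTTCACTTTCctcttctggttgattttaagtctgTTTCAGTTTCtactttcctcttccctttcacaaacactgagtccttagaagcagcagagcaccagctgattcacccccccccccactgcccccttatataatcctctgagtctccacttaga
Rsad2, chr12:26456453-26456702, minus strand: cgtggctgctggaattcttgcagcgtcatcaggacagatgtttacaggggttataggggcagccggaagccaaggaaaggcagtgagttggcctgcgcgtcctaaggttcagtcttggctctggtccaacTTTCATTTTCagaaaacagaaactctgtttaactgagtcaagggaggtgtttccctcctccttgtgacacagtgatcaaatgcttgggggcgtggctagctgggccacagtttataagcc
Irf1, chr11:53769764-53770013, plus strand: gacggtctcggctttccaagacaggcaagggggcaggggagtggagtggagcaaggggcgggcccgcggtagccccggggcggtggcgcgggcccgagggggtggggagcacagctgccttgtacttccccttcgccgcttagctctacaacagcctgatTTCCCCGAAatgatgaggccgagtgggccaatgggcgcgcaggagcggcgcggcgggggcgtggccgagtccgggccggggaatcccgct
In Bst2 a gamma-activated site and a pair of response element cores overlap, the first core beginning 130 bases before the start. In Ifit1 the cores begin 104 and 85 bases before the start, and in Ifit3 the same letters occur in the same order at 156 and 122. Of the 24 listed genes with an entry in the promoter table, 11 (45.8%) held the response element core on either strand in the window from 250 bases before to 50 after a start, against 3.99% of the 27025 genes of the table. The gamma-activated site letters were in 8 of the 24 (33.3%) and in 9.55% of all genes. Among the measured genes with an entry, the response element core was in 2 of 6 members that were higher in AKR F1 and in 8 of 15 that did not pass the test, and it was not in this window of Samd9l, the member that was lower. The difference between these shares was not tested. A match is a description of the letters, not of binding.

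Expression values are on a log2 scale, and a positive difference means more signal in AKR F1, with the standard error (SE) of limma's fit. The brightest probe set stands for a gene, levels are never set against those of another gene, and a gene passes the test at an adjusted p below 0.05. By the brightest probe set, 12 of the 33 interferon-stimulated genes were higher in the marrow of the AKR F1 mice and 1 was lower, while 20 did not pass. Xaf1 is among the 12, but its other probe set passed in the opposite direction. By the mean of the probe sets 8 were higher and 3 lower, and by the most variable probe set 10 and 4. Of all 18193 genes, the mean called 1599 higher and 1332 lower, and the most variable probe set 1782 and 1734. The 13 members called by the brightest probe set are 39.4% of the members, against 15.2% of all genes tested and 22.3% of the genes above the median level of the array, where 31 of the 33 members lie. Of all genes 9.2% were called higher and 6.04% lower, and of those above the median level 13.4% were called higher. The median difference was 0.21 over the members and 0.06 over all genes. The 3 arrays of one group lay wholly above those of the other for 19 of the 33 members, 16 of them with AKR F1 above, as they did for 36.7% of all genes (23% with AKR F1 above and 13.7% below). The members were chosen with earlier results of these data known, so these counts are a description of the list. In whole marrow, a lower number of cells of a type and less RNA per cell cannot be told apart.

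**Figure D1:**
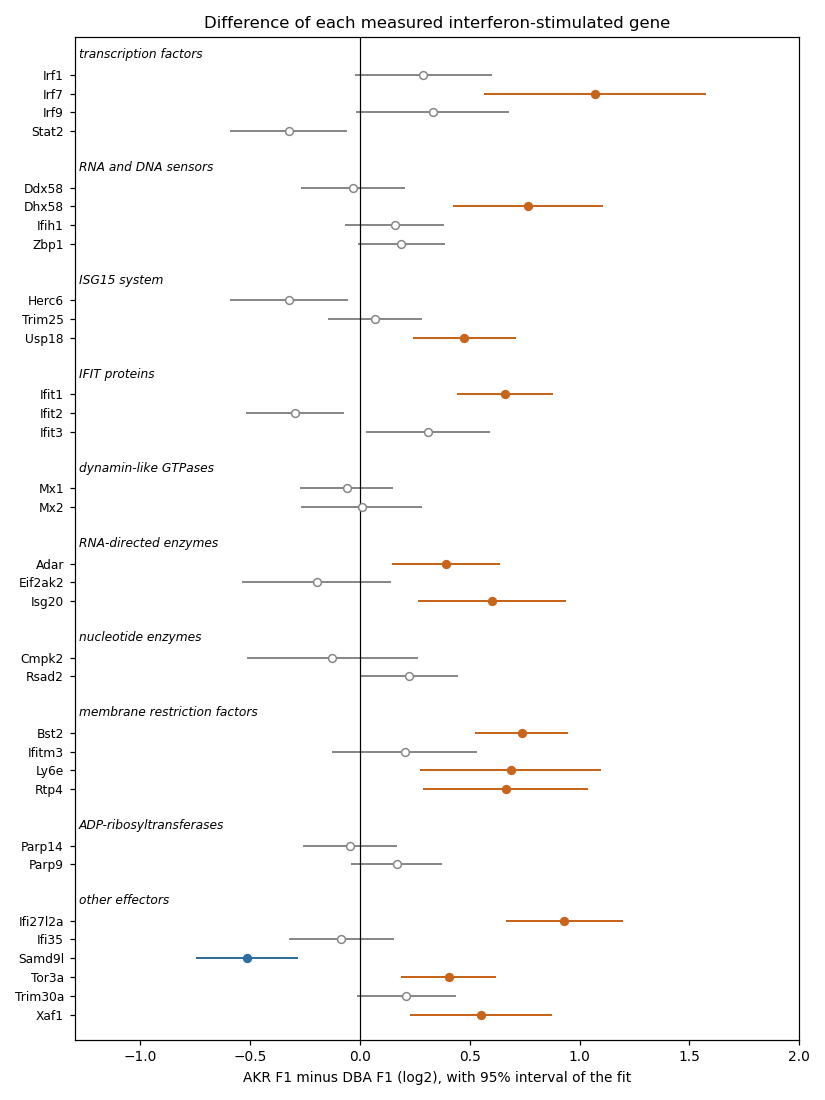
Difference between the groups for each of the 33 measured interferon-stimulated genes, grouped by role (x axis, AKR F1 minus DBA F1 in log2 units; bars are the 95% intervals of limma's fit over 3 arrays per group). Filled orange points passed the test as higher in AKR F1, the filled blue point (Samd9l) as lower, and open grey points did not pass.

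Several measures other than genotype separated the same arrays. The 3' to 5' index, the mean log2 signal at the 3' end minus that at the 5' end of 6 control transcripts, which rises when labelled RNA is shorter, was 1.66 to 2.22 in AKR F1 and 1.44 to 1.54 in DBA F1. The 6 are mouse beta-actin and Gapdh and the bacterial controls Dap, Lys, Phe and Thr. The mouse and bacterial parts were not taken apart, so the index does not describe the marrow RNA alone. The mean of the hybridization controls, transcripts added at a fixed amount, was 9.74 to 9.95 against 10.3 to 10.7. Of 10 skeletal muscle markers 8 were lower and none higher in AKR F1, and the list mean was 6.87 to 8.04 against 8.84 to 11.7. Of 11 monocyte and macrophage markers 4 passed as higher, namely C1qa, C1qb, C1qc and Mertk, and none as lower, with a list mean of 9.24 to 9.44 against 8.99 to 9.14. Of these 11 differences 9 were positive, with Csf1r at 0.10 and Adgre1 at 0.02, and 2 were negative. The negative ones were Vcam1 (-0.16) and Ccr2 (-0.50, adjusted p = 0.072), and for Ccr2 all AKR F1 arrays lay below all DBA F1 arrays. Of 12 plasmacytoid dendritic cell markers only Cd209d passed, as higher, the list mean was 7.44 to 7.58 against 7.30 to 7.52, and the defining marker Siglech differed by 0.10 (SE 0.13). Of the 12 differences 9 were positive and 3 negative, the lowest being that of Cox6a2 (-0.60, SE 0.29). DBA F1 replicate 1 had the highest muscle list mean (11.7) and the highest plasmacytoid dendritic cell list mean of its group (7.52). Whether muscle signal enters the latter mean, and so the covariate made from it, was not tested. The T cell markers Cd3e and Cd4 were 2 of 5 higher, with list means of 6.99 to 7.17 against 6.76 to 6.81. The list means of neutrophils (12.8 to 13.1 over both groups), red cells (10.7 to 10.8), B cells (8.78 to 9.21) and megakaryocytes (11.7 to 12.2) overlapped between the groups, but single markers of each passed. Of 6 B cell markers Cd79a was higher (1.32) and Ebf1 (-0.86) and Ms4a1 (-0.99) were lower. Of 9 neutrophil markers Elane was higher (0.82) and Cxcr2 lower (-0.49), and the red cell marker Alas2 (0.35) and the megakaryocyte marker Gp9 (0.59) were higher. The NK cell list mean was 6.17 to 6.26 in AKR F1 and 6.28 to 6.42 in DBA F1, with Gzma alone past the test, as lower (-0.83). The other NK cell markers did not share that difference, with Klrd1 at 0.23, Eomes at 0.05, Prf1 at 0.0015 and Ncr1 at -0.09. The red cell marker Hba-a1 was at means of 3.70 and 3.68, about the level of the lower quartile, and the other markers of these lists were above that level. The part of these blood cell lineages in the results was not tested other than for plasmacytoid dendritic cells, and the index, the hybridization controls, the muscle list and the plasmacytoid dendritic cell list were each entered as a covariate.

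With a covariate for the 3' to 5' index, for the hybridization controls or for the muscle list mean, none of the 33 members passed the limma test, with 11, 8 and 11 members at an unadjusted p below 0.05, and 3, 2 and 61 of all genes passed. All 13 differences kept their sign in each of these fits, and the median difference of the 12 higher members was 0.75, 0.68 and 0.70, against 0.66 without a covariate. The smallest of the 12 was 0.39, 0.079 and 0.27, against 0.39 without a covariate. Each of these 3 measures separated the groups, so genotype and the measure cannot be told apart in these fits. Over the 13 members, the median ratio of the standard error to that without a covariate was 1.88, 2.21 and 1.84. With the plasmacytoid dendritic cell list mean as a covariate 5 members passed, Usp18, Ifit1, Bst2 and Ifi27l2a as higher and Samd9l as lower, and the median difference of the 12 was 0.61.

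**Figure D2:**
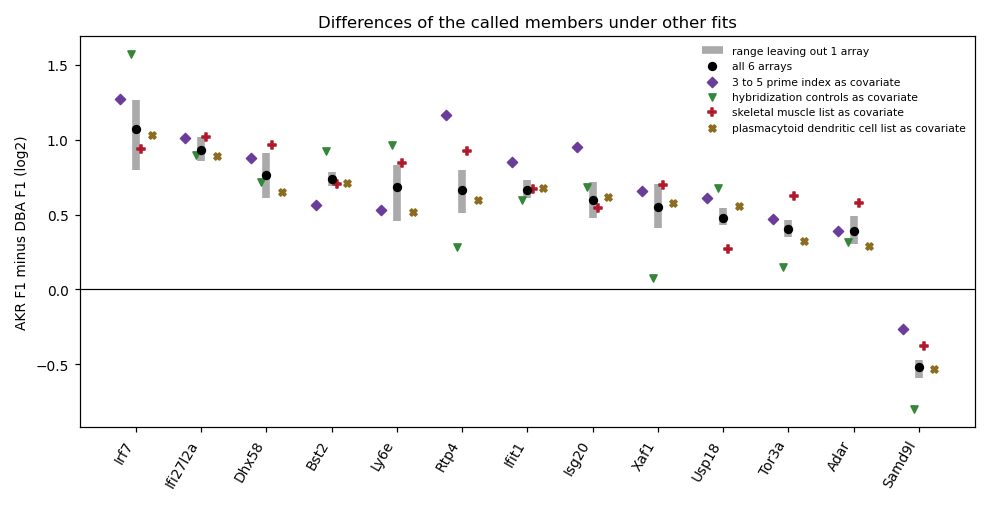
Difference of each of the 13 called members (y axis, AKR F1 minus DBA F1 in log2 units) in the fit of all 6 arrays (black), over the 6 fits that left out 1 array (grey bar) and with each of 4 covariates. All points of the 12 higher members lie above 0 and all of Samd9l below it, while Xaf1 with the hybridization controls lies close to 0. For the grey bars that side was fixed in advance, because the groups do not overlap in any of the 13.

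Among the transcription factors, Irf7 had the largest difference of any member at its brightest probe set. Irf7 is the factor that amplifies interferon alpha production and is itself induced by interferon. Its arrays, given here and for later genes in the order of their replicate numbers, read 8.07, 7.70 and 7.89 for AKR F1 and 6.98, 7.20 and 6.27 for DBA F1. The groups did not overlap, DBA F1 replicate 3 was the lowest array, and the difference was 1.07 (SE 0.22, adjusted p = 0.018), which is 2.10-fold. Irf9, the DNA-binding part of the type I complex, differed by 0.33 (SE 0.15, adjusted p = 0.18), and Irf1, an early target of interferon gamma, by 0.29 (SE 0.14, adjusted p = 0.19). Stat2 differed by -0.33 (SE 0.12, adjusted p = 0.096) at means of 6.05 and 6.38, with every AKR F1 array below every DBA F1 array. Its second probe set, about as bright at means of 6.25 and 6.18, differed by 0.07, so the sign for Stat2 rests on the choice between them. Irf7 alone of the 4 factors passed.

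The cytoplasmic sensors include Ddx58, which encodes RIG-I, Ifih1, which encodes MDA5, and Dhx58, which encodes LGP2, a relative that regulates both. Dhx58 was at 6.78, 6.59 and 6.83 in AKR F1 and at 6.26, 5.98 and 5.67 in DBA F1. All AKR F1 arrays were above all DBA F1 arrays, and the difference was 0.76 (SE 0.15, adjusted p = 0.015), or 1.699-fold. Its other probe sets, which are dim, differed by 0.14 and -0.14, and neither passed. At their brightest probe sets Ddx58 (-0.03, 95% interval -0.27 to 0.21) and Ifih1 (0.16, interval -0.07 to 0.38) overlapped between the groups. By this rule only the regulator passed among these related helicases. As described further on, a dimmer probe set of Ddx58 passed as higher, and Dhx58 did not pass by the mean of its probe sets. Whether Dhx58 differed more than the others was not tested. Zbp1, a sensor of Z-form nucleic acid, differed by 0.19 (adjusted p = 0.18).

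ISG15 is a ubiquitin-like protein that is attached to other proteins, and Usp18 encodes the enzyme that removes it and also blocks signalling at the receptor chain Ifnar2. Usp18 was at 7.25, 7.02 and 7.21 in AKR F1 and at 6.62, 6.82 and 6.62 in DBA F1. The groups did not overlap, and the difference was 0.47 (SE 0.10, adjusted p = 0.020). Herc6, the mouse ligase for ISG15, lay lower in AKR F1 at all 4 of its probe sets, by -0.32 at the brightest (SE 0.12, adjusted p = 0.10) and by -0.17, -0.37 and -0.77 at the others, none of which passed. Trim25, the ligase that activates RIG-I, differed by 0.07 (interval -0.15 to 0.28).

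The IFIT proteins bind foreign RNA and stall its translation, and their genes form a cluster on chromosome 19. Ifit1, whose promoter is printed above, was at 5.40, 5.16 and 5.32 in AKR F1 and at 4.70, 4.63 and 4.57 in DBA F1. The groups were well apart, with a difference of 0.66 (SE 0.10, adjusted p = 0.0063), which is 1.58-fold. Its neighbours differed from it in outcome. Ifit3, with the same response element letters, differed by 0.31 (SE 0.12, adjusted p = 0.13), and Ifit2 by -0.30 (SE 0.10, adjusted p = 0.074), with all AKR F1 arrays below all DBA F1 arrays. Each of the 3 genes has only 1 probe set.

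Of the 4 restriction factors of the cell membrane 3 were called higher at their brightest probe sets. Of all genes 9.2% were called higher, and 13.4% of those above the median level of the array. The 4 were not tested as a group. Bst2 encodes tetherin, which holds budding virus on the cell surface and is also a surface marker of mouse plasmacytoid dendritic cells. It was at 7.72, 7.91 and 7.81 in AKR F1 and at 7.06, 7.16 and 7.01 in DBA F1. The arrays within each group were close, and the difference was 0.74 (SE 0.093, adjusted p = 0.0041), or 1.67-fold. Ly6e, a lipid-anchored surface protein that limits coronavirus entry, was at 12.14, 12.24 and 12.31 against 11.83, 11.72 and 11.08, a difference of 0.69 (SE 0.18, adjusted p = 0.038). DBA F1 replicate 3 again stood lowest, and the second probe set of Ly6e differed by 0.21 and did not pass. Rtp4, a chaperone of membrane receptors with antiviral activity, was at 7.74, 7.20 and 7.34 against 7.02, 6.69 and 6.57, a difference of 0.66 (SE 0.16, adjusted p = 0.031), and its other probe set, near the floor of the arrays, by 0.12. Ifitm3, which blocks the fusion of entering virus, differed by 0.20 (interval -0.13 to 0.53) and did not pass.

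Among enzymes that act on RNA, Isg20, an exonuclease, was at 11.97, 11.51 and 11.73 in AKR F1 and at 11.24, 11.28 and 10.89 in DBA F1. The groups did not overlap, and the difference was 0.60 (SE 0.15, adjusted p = 0.031). Adar, which edits adenosine to inosine in paired RNA, was at 8.64, 8.64 and 8.68 against 8.45, 8.24 and 8.09, a difference of 0.39 (SE 0.11, adjusted p = 0.044). In the fit of all probe sets this same probe set of Adar did not pass (adjusted p = 0.052), and the others differed by 0.10 and -0.23. Eif2ak2, which encodes the kinase PKR that halts translation, is described further on with its probe sets. The nucleotide enzymes Rsad2 (viperin) and Cmpk2 are neighbours on chromosome 12, and neither passed. Rsad2 differed by 0.22 (SE 0.098, adjusted p = 0.16) with all AKR F1 arrays above all DBA F1 arrays, and Cmpk2 by -0.13 (interval -0.52 to 0.26).

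Of the other effectors, Ifi27l2a, a small interferon-induced membrane protein, was at 8.93, 8.78 and 9.07 in AKR F1 and at 8.17, 7.97 and 7.85 in DBA F1. The groups were far apart for their spread, and the difference was 0.93 (SE 0.12, adjusted p = 0.0041), or 1.91-fold. Tor3a, an ATPase of the endoplasmic reticulum, was at 6.64, 6.64 and 6.53 against 6.33, 6.10 and 6.18, a difference of 0.40 (SE 0.095, adjusted p = 0.027), and its other probe sets differed by 0.26 and 0.34 without passing. Samd9l, a growth-restraining and antiviral protein of blood cells, was the 1 member past the test as lower. It was at 9.52, 9.28 and 9.30 in AKR F1 and at 9.96, 9.78 and 9.90 in DBA F1. The groups did not overlap, and the difference was -0.52 (SE 0.10, adjusted p = 0.015). Ifi35 differed by -0.09 (interval -0.33 to 0.15). The ADP-ribosyltransferase genes Parp9 and Parp14, near neighbours on chromosome 16, differed by 0.17 and -0.05, and neither passed. Mx1, whose protein blocks influenza virus and is defective in many laboratory strains, differed by -0.06 at a level of 3.53 and 3.59, below the lower quartile of every array, and a difference was not detectable at that signal. Mx2 differed by 0.01 (interval -0.27 to 0.28).

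**Figure D3:**
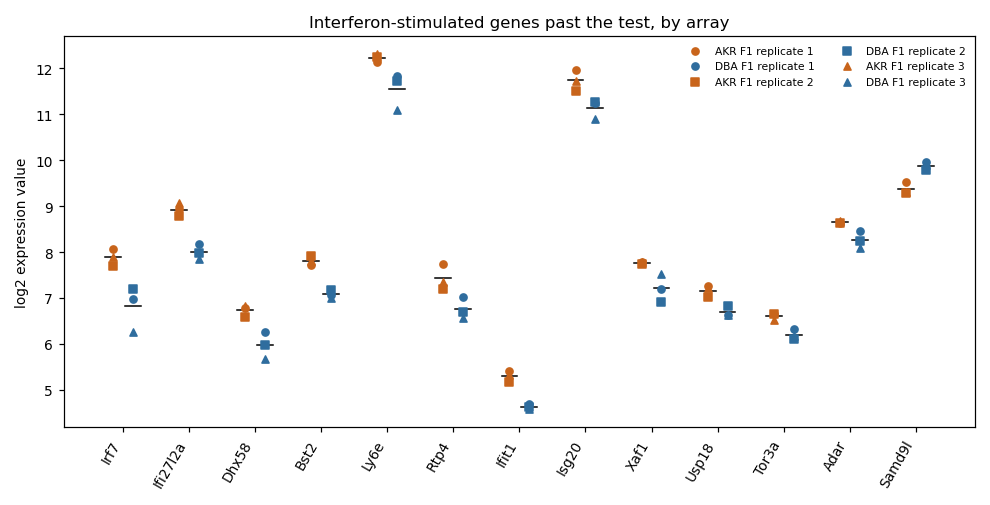
Log2 expression value (y axis) of the 13 members past the test in each array, AKR F1 in orange and DBA F1 in blue, with the mean of each group as a line and the replicate number as the shape. The 13 were chosen by the test, and the groups do not overlap in any of them. At these brightest probe sets Samd9l alone has AKR F1 below. Heights are not comparable between genes.

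For 8 of the 17 members with more than 1 probe set, the probe sets did not all get the same call. In Dhx58, Ly6e, Rtp4 and Tor3a, described above, the brightest alone passed, and in Xaf1, Trim30a, Eif2ak2 and Ddx58 a dimmer one passed. Xaf1 encodes a protein that counters the inhibitor of apoptosis XIAP. Its brighter probe set was at 7.77, 7.73 and 7.77 in AKR F1 against 7.19, 6.92 and 7.51, which is a difference of 0.55 (SE 0.14, adjusted p = 0.035). Its dimmer probe set was at 5.04, 5.32 and 5.21 against 7.25, 6.76 and 6.54, a difference of -1.66 (SE 0.18, adjusted p = 0.0026 in the fit of all probe sets). Both passed, in opposite directions, and the groups overlapped at neither. A direction for Xaf1 as a gene cannot be given from these arrays. Across all genes with more than 1 probe set, 85 of 9010 had probe sets called in both directions, and 837 had at least 2 probe sets called.

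Trim30a, which dampens Toll-like receptor signalling and belongs to a cluster of close copies on chromosome 7, showed the same kind of split. Its brightest probe set differed by 0.21 (adjusted p = 0.19), with all AKR F1 arrays above, while its dimmer probe set was at 7.19, 6.66 and 6.70 in AKR F1 and at 7.91, 7.58 and 8.12 in DBA F1. That is a difference of -1.02 (SE 0.18, adjusted p = 0.012 in the fit of all probe sets), with all AKR F1 arrays below. Eif2ak2 differed by -0.20 at its brightest probe set, while the next brightest was at 5.31, 4.76 and 5.15 against 5.70, 5.998 and 6.21, a difference of -0.90 (SE 0.17, adjusted p = 0.015 in the fit of all probe sets). All 3 probe sets of Eif2ak2 lay lower in AKR F1, and only this one passed. For Ddx58, the dimmest probe set differed by 0.34 (SE 0.092, adjusted p = 0.047 in the fit of all probe sets) where the brightest differed by -0.03. The dimmer Xaf1 probe set passed whichever array was left out, that of Trim30a failed without AKR F1 replicate 2 or 3 (adjusted p = 0.052 and 0.057), that of Eif2ak2 failed without either of these or DBA F1 replicate 2 (0.051 to 0.057), and that of Ddx58 failed in all 6. Over all 60 probe sets of the members 12 were higher and 4 lower, 5.57% and 6.73% of all probe sets being called in these directions. Of the 27 probe sets that were not the brightest of their gene, 16 had the sign of the brightest and 11 the opposite. Sequence differences between the parent strains at the probes are not analysed here, and 16 of the 33 members have only 1 probe set, so that no other can check them. These include Irf7, Usp18, Ifit1, Bst2, Isg20, Ifi27l2a and Samd9l. When probe sets were averaged within a gene, Dhx58 (0.25, adjusted p = 0.097), Ly6e (0.45, adjusted p = 0.14) and Adar (0.09, adjusted p = 0.47) did not pass, and Xaf1 differed by -0.55. With the most variable probe set Tor3a (0.34, adjusted p = 0.13) and Adar (0.39, adjusted p = 0.051) did not pass, and with centring on the median Adar did not (adjusted p = 0.054).

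**Figure D4:**
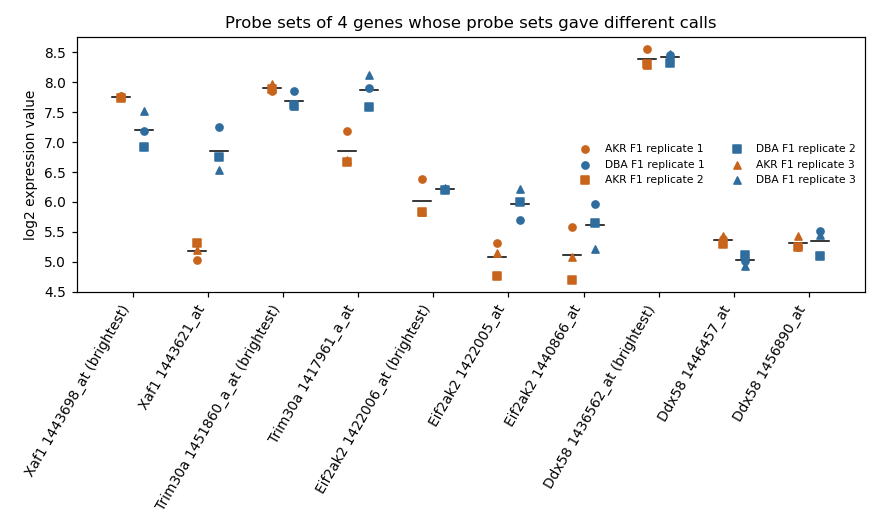
Log2 expression value (y axis) in each array at every single-symbol probe set of Xaf1, Trim30a, Eif2ak2 and Ddx58, AKR F1 in orange and DBA F1 in blue, with group means as lines. The Xaf1 probe sets separate the groups in opposite directions, as do those of Trim30a, where only the lower one passed.

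The same arrays were often the extremes of their group. DBA F1 replicate 3 was the lowest of its group for 18 of the 33 members and for 9 of the 12 higher ones, and AKR F1 replicate 2 was the lowest of its group for 17 and 8. The mean over the 12 was 8.26, 8.09 and 8.21 in the AKR F1 arrays and 7.65, 7.56 and 7.36 in those of DBA F1, so every AKR F1 array was above every DBA F1 array, as the choice of these 12 fixes. Most of the 13 members did not keep their call in every fit that left out 1 array. Bst2, Ifit1 and Ifi27l2a passed whichever array was left out, with differences of 0.69 to 0.78, 0.61 to 0.73 and 0.86 to 1.02. Irf7 failed when any 1 AKR F1 array was left out (adjusted p = 0.054 to 0.068), Dhx58 and Usp18 without AKR F1 replicate 1 or 3 (0.052 to 0.067 and 0.069 to 0.084) and Samd9l without AKR F1 replicate 2 or 3 (0.070 for each). Isg20 passed in 2 of the 6 fits, failing without AKR F1 replicates 1 and 3 and DBA F1 replicates 2 and 3 (0.051 to 0.097). Ly6e also passed in 2, failing without each AKR F1 array and without DBA F1 replicate 2 (0.060 to 0.12). Adar, Rtp4, Tor3a and Xaf1 passed in 1 each, Xaf1 without DBA F1 replicate 3 and the others without DBA F1 replicate 1, with adjusted p of up to 0.13, 0.087, 0.10 and 0.11 elsewhere. Leaving out AKR F1 replicate 1, 2 or 3 left 4, 6 or 3 members called, and leaving out DBA F1 replicate 1, 2 or 3 left 12, 7 or 10. All 13 differences kept their sign in these fits. That was fixed in advance, because the groups did not overlap in any of the 13. Over all genes the same fits called 1396, 685 or 793 and 3248, 1585 or 2147, against 2771 with all 6 arrays. The median ratio of the standard error of the 13 to that with all 6 arrays was 1.01 to 1.21.

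The genes that make, receive and restrain interferon signals were taken from a separate list. Of 45 measured genes from a list of 59 pathway genes that are not members, 6 were higher, 1 was lower and 38 did not pass, which is 15.6% against 15.2% of all genes, with a median difference of 0.13. The balance of directions changed with the choice of probe set, with 5 higher and 5 lower by the mean of the probe sets and 6 higher and 8 lower by the most variable one. It also moved over all genes, from 1673 higher and 1098 lower by the brightest probe set. The mean gave 1599 and 1332 of all genes, and the most variable probe set 1782 and 1734. Of 9 measured interferon genes 8 did not pass, and Ifnab, an interferon alpha gene, was higher by 0.41 (SE 0.091, adjusted p = 0.021) at means of 4.89 and 4.48, below the median of the arrays. None of the 6 receptor chains passed, with Ifnar1 at -0.25 (adjusted p = 0.084) and the interferon lambda receptor Ifnlr1 at 0.33 (adjusted p = 0.082), nor did the kinases Jak1 (-0.11), Jak2 (-0.24) and Tyk2 (0.13). None of 10 negative regulators passed, the lowest adjusted p being those of Pias1 (0.31, adjusted p = 0.062) and Socs1 (0.44, adjusted p = 0.063).

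Most of the 7 calls were genes of interferon induction. Irf3, the factor that first switches on interferon beta, was at 9.60, 9.74 and 9.76 in AKR F1 against 9.29, 9.13 and 8.63, a difference of 0.68 (SE 0.16, adjusted p = 0.027). Mavs, the mitochondrial adaptor of RIG-I and MDA5, was higher by 0.55 (SE 0.10, adjusted p = 0.013), Ticam1, the adaptor TRIF of Toll-like receptor 3, by 0.57 (SE 0.12, adjusted p = 0.019) and Sting1, the adaptor of cytosolic DNA sensing, by 0.44 (SE 0.10, adjusted p = 0.028). Tank, which binds the kinase Tbk1, was lower, by -0.50 (SE 0.097, adjusted p = 0.014), at 8.08, 7.87 and 8.13 against 8.53, 8.54 and 8.505. Tbk1 itself differed by -0.32 (adjusted p = 0.057). These were 5 of 15 genes of induction past the test (33.3%, against 15.2% of all genes). Of the genes above the median level of the array, where all of the 15 but Tlr3 lie, 22.3% were called. Over the 15 the groups did not overlap in 7, as in 36.7% of all genes. Uba7, the activating enzyme of ISG15, was at 9.73, 9.77 and 9.84 in AKR F1 and at 9.29, 9.26 and 9.07 in DBA F1, differing by 0.57 (SE 0.095, adjusted p = 0.0096), and Ube2l6, the next enzyme of that chain, differed by 0.08 (interval -0.18 to 0.33). Of these 7 genes Uba7 alone passed whichever array was left out. Tank failed without AKR F1 replicate 2 (adjusted p = 0.060), Mavs without AKR F1 replicates 2 and 3 (0.055 to 0.062), Ticam1 without these and DBA F1 replicate 2 (0.061 to 0.082), Irf3 and Ifnab without each AKR F1 array and DBA F1 replicate 2 (0.054 to 0.097 and 0.065 to 0.079), and Sting1 in all but the fit without DBA F1 replicate 1 (0.060 to 0.10). Leaving out AKR F1 replicate 1, 2 or 3 left 5, 1 or 2 pathway genes called, leaving out DBA F1 replicate 2 left 3, and none passed with any of the first 3 covariates above. The calls over all genes in the fits without 1 array are given with those of the members above.

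**Figure D5:**
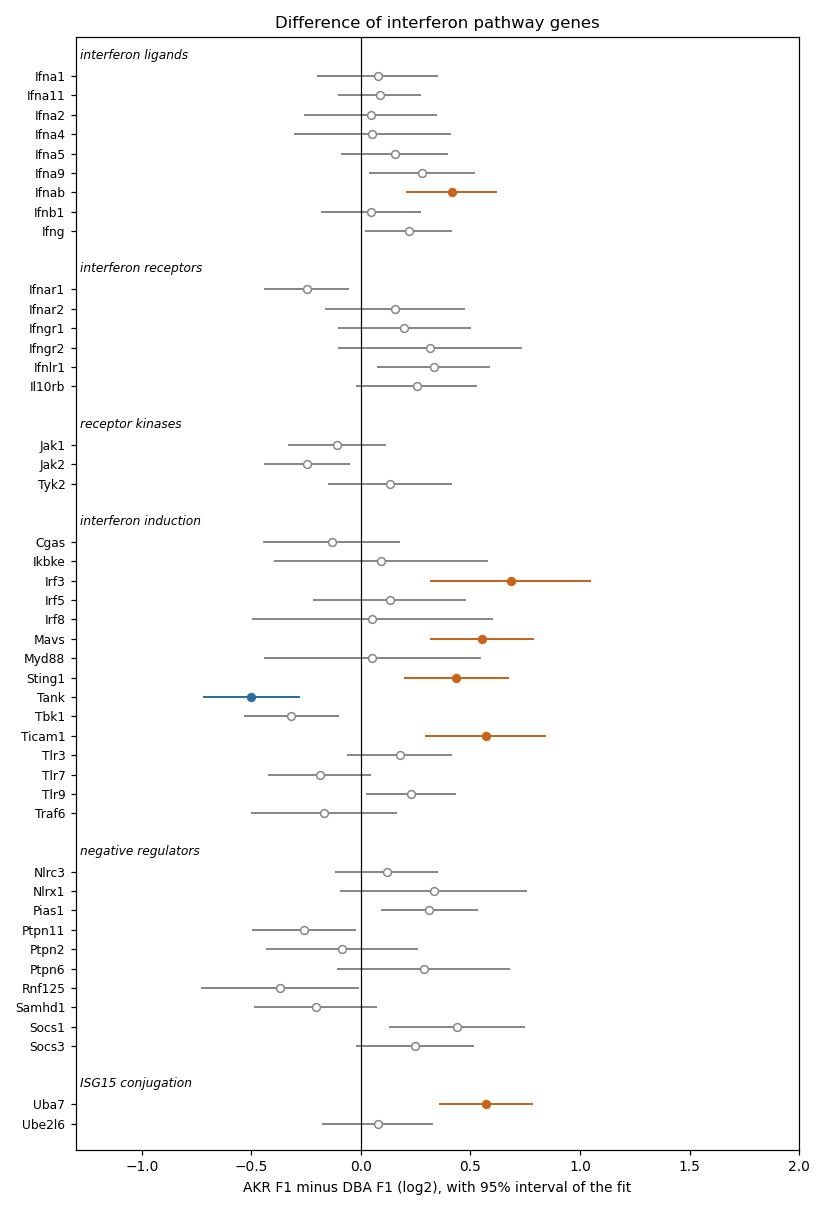
Difference between the groups for 45 genes of interferon production, reception and restraint that are not members (x axis, AKR F1 minus DBA F1 in log2 units, with the 95% interval of limma's fit). Filled orange points passed the test as higher in AKR F1 and the filled blue point (Tank) as lower; 5 of the 7 calls are among the genes of interferon induction.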

How the data were processed

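Bone marrow RNA of 6 samples, 3 per cross, was extracted with Trizol from snap-frozen tissue, labelled with biotin and hybridized to Affymetrix arrays, per the labels' protocols. The deposited values are on a log2 scale, 1 per probe set and array. RMA and MAS5 are named in the submitters' processing notes, without a role; which of them made the table, and the background correction and normalization used, are not given in the sources used here. Groups were taken from the sample titles.

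Of 45101 rows, 64 control probe sets were left out of the tests. Of the other 45037, 34945 carried 1 gene symbol in GEO's platform annotation, 932 several and 9160 none, and only the first were named. The brightest of a gene's probe sets by its mean over the 6 arrays stood for it, giving 18193 genes. Both groups were compared with limma 3.58.1 in R 4.3.3 (lmFit and eBayes, 4 residual degrees of freedom), with Benjamini-Hochberg adjustment over all genes at 0.05. A second fit took all probe sets. The fit was tested on simulated data. All measured members are named, as are pathway genes past the test and the neighbours in role that they are set beside. The members and lists were chosen with earlier results of these data known. The replicate numbers do not say that samples were paired: deviations of same-numbered arrays from their group means correlated at 0.0058, -0.060 and 0.073. The alternatives were other scalings, a filter on dim genes, a variance trend, array weights, a replicate block, other probe set rules, each array left out, other thresholds and 4 covariates. Promoters from RefSeq (GRCm38.p6) were matched by symbol for 24 of the 35 listed genes.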

Additional observations from a re-analysis of the deposited data

How the results depend on the processing

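The 13 members called at 0.05 became 3 at 0.01, 0 with the 3' to 5' index, 0 with the hybridization controls, 0 with the muscle list and 5 with the plasmacytoid dendritic cell list as a covariate (limma, with 17 members at an unadjusted p below 0.05 without a covariate), and 3 to 12 when 1 array was left out. For the 16 member probe sets called these values were 4, 0, 0, 0, 6 and 5 to 14. The 7 pathway genes called became 1 at 0.01, 13 at 0.1, 11 with array weights, 14 with the most variable probe set, 0, 0, 0 and 1 with the covariates in the same order, and 1 to 8 with 1 array left out. The 2771 of all genes called became 526 at 0.01, 4243 at 0.1, 3, 2, 61 and 1100 with the covariates, and 685 to 3248 with 1 array left out. With the replicate number as a block, which has no support as a pairing, 12 members, 15 member probe sets, 7 pathway genes and 2357 of all genes were called. The scaling alternatives left the median difference of all genes at 0.051 to 0.062, and the shorter response element core was in 62.5% of listed genes with a promoter.

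Signs turned in 32 of 781 alternative values, which cover 44 genes and probe sets; 577 kept their sign and their side of the threshold. Of the called members only Xaf1 turned, to -0.55 with the mean of its probe sets and -1.66 with the most variable. With these same rules Trim30a became -0.40 and -1.02, Ddx58 0.090 and 0.34, and Parp14 0.030 and 0.10. The mean gave Trim25 -0.016, and the most variable probe set gave Rsad2 -0.13 and Ifi35 0.0015. With the 3' to 5' index Ddx58 was 0.24, Trim25 -0.11, Eif2ak2 0.33 and Cmpk2 0.054. With the hybridization controls Cmpk2 was 0.48, Parp14 0.0029 and Ifi35 0.17. With the muscle list Ddx58 was 0.073, Ifih1 -0.065, Mx1 0.052, Mx2 -0.30 and Parp14 0.057. With the plasmacytoid dendritic cell list Cmpk2 was 0.028, and with array weights Mx2 was -0.080. With 1 array left out Ddx58 ranged from -0.12 to 0.016, Mx2 from -0.12 to 0.086, Cmpk2 from -0.24 to 0.065 and Parp14 from -0.11 to 0.0014. The cause was not tested. The 3 arrays per group, and signals near the floor for some probe sets, limit what could be detected.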
